A study of Mus musculus with 6 samples.

Results

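Nr1h5, Baiap2l1 and Ipp are 3 of 54532 genes in a table of RNA levels from haploid mouse embryonic stem cells. They were chosen by name because their RNA was nearly lost in cells without p53. All 3 are protein-coding genes, each lies on a chromosome of its own, and all 3 were among the 15144 genes abundant enough to be tested. The series compared 3 libraries of p53-deficient haploid embryonic stem cells with 3 libraries of wild-type (WT) haploid embryonic stem cells, to ask how blocking apoptosis affects the return of haploid cells to diploidy. Both groups are given as strain 129SV. Sample titles write P53ki for the p53-deficient cells, the genotype field gives them as lacking p53, and the series design calls them a knockout. The titles do not tell separate lines, clones or cultures apart within a genotype, so a p-value here covers library-to-library spread that may be technical, and differences between cell lines cannot be told apart from p53 loss.

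The 3 genes encode unrelated proteins. Nr1h5 encodes the farnesoid X receptor beta, a nuclear receptor of the liver X and farnesoid X receptor group that binds lanosterol in the mouse and is a pseudogene in humans. Nuclear receptors of this group bind DNA as partners of retinoid X receptors and switch genes in response to sterols or bile acids. Baiap2l1 encodes IRTKS, a substrate of the insulin receptor with an I-BAR domain, which bends membranes outward and joins them to actin filaments. Ipp encodes a kelch-repeat protein with a BTB domain that binds actin. It was named for a transcript in mouse placenta that starts in an intracisternal A particle, an endogenous retrovirus. p53, the transcription factor encoded by Trp53, halts the cell cycle or starts apoptosis after stress, and in pluripotent cells it also favours differentiation.

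The bases just before the start of each gene are shown as a stretch of DNA in which the 3 genes can be compared. Introns, other starts and more distant DNA were not searched. Sequences are from RefSeq (GRCm38.p6, the same build as mm10), where all 3 genes were matched. They cover the 250 bases before the annotated start, 5′ to 3′ on the gene's strand, at chr3:102964134-102964383 (minus strand) for Nr1h5, chr5:144358113-144358362 (minus strand) for Baiap2l1 and chr4:116507299-116507548 (plus strand) for Ipp. Capitals mark CG dinucleotides.
Nr1h5: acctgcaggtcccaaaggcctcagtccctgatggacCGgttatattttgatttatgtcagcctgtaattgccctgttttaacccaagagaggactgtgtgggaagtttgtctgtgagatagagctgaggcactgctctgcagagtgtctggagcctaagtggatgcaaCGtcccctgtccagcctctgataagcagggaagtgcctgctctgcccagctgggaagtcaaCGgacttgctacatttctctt
Baiap2l1: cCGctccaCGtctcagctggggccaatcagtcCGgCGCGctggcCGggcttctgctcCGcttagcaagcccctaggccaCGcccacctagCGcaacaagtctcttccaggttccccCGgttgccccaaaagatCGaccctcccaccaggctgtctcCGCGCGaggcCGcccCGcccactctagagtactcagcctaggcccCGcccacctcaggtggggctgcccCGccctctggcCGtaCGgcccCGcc
Ipp: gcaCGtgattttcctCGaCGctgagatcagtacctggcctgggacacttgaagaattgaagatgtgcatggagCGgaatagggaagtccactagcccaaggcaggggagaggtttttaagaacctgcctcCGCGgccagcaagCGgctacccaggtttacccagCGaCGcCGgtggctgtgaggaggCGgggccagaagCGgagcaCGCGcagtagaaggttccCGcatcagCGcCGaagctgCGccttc

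The 3 stretches differed in base composition. Nr1h5 held 3 CG dinucleotides and 51.6% G and C, Baiap2l1 held 21 and 70.4%, and Ipp held 18 and 60.4%. Over 32851 RefSeq promoters, the median was 6 CG dinucleotides and 52.4% G and C, so Nr1h5 lay below the median in CG dinucleotides and the other two lay above it. The p53 half-site, the decamer to which a pair of p53 molecules binds, had no exact match in any of the 3 stretches, and 7.13% of all promoters held one. Baiap2l1 held 4 matches to the GC box GGGCGG on its opposite strand, starting 85, 80, 50 and 26 bases before the start, of which the first pair share a base. At least 1 GC box was present in 32.7% of promoters and at least 4 in 4.09%. Baiap2l1 also held a CCAAT box (33.8% of promoters), and Ipp held the E-box CACGTG (6.02%). TATAAA was in none of the 3 and in 12.4% of promoters. Both strands were searched. These matches describe letters in 250 bases and say nothing of binding.

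Levels are given in FPKM, a measure of fragments that takes gene length and library size into account. Trp53, the targeted gene, was lower in the libraries labelled as lacking it: it held 9.71, 9.71 and 9.98 FPKM in p53-deficient libraries, against 64.5, 69.8 and 69.6 FPKM in WT libraries. Reads in listed genes, rebuilt from FPKM and gene length, numbered 11536412 to 21218976 per library. The label of embryonic stem cells fitted the markers: all 12 stem cell markers were detected in both groups. Their summed level was 2901 to 3013 FPKM in p53-deficient and 3608 to 3679 FPKM in WT libraries. The largest part of these sums was Dppa5a, with a mean of 1075 FPKM in p53-deficient and 2007 FPKM in WT cells. Pooled over the 12 genes, reads were 1.02 times lower in p53-deficient libraries. Calls were made where the adjusted p was below 0.05 in limma, a linear model that shares variance across genes, with Benjamini-Hochberg adjustment over all 15144 tested genes. The background was high: 66.5% of tested genes were called, 31.3% lower and 35.3% higher in p53-deficient cells, or 5811 lower and 4069 higher genes in place of 4733 and 5341 with median-ratio scaling. Of the 12 stem cell markers 4 were called lower and 7 higher, of 3 tested primitive endoderm markers 2 and 1, and of 5 tested trophoblast markers 1 and 3. Markers of fibroblasts, which could come from feeder cells, moved with the groups. All 25 tested members of that list of 26 were called lower. Summed levels of the list were 356 to 379 FPKM in p53-deficient and 1554 to 1581 FPKM in WT libraries. The untested member was at 0 in p53-deficient libraries 1 and 2, and no member was at 0 in all 3. Reads of 4 Y-linked genes were 9.98 times lower in p53-deficient libraries. Fewer cells of a type and less RNA per cell cannot be told apart in bulk RNA.

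Nr1h5, the nuclear receptor gene, was almost without reads in p53-deficient cells. It lies at chr3:102939658-102964133 (mm10, minus strand, 11 exons in its longest transcript; ENSMUSG00000048938). It held 0, 0.0305 and 0.0200 FPKM in p53-deficient libraries, against 66.4, 65.6 and 64.4 FPKM in WT libraries. These values stand for 0, 1 and 1 reads in p53-deficient libraries, against 3250, 3664 and 3757 reads in WT libraries. A count of 0 in the first p53-deficient library allows up to 0.0499 FPKM, the value of 3 reads there. The groups lay far apart, and each WT library was within a few FPKM of the others. Per read in listed genes, Nr1h5 was 4724 times lower in p53-deficient cells (95% exact binomial interval 1307 to 39012), an interval that covers counting error only and is wide because 2 reads set it. The WT mean was above that of 94.5% of tested genes.

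Baiap2l1, the membrane and actin linker, kept a small but measurable level. It lies at chr5:144264526-144358112 (mm10, minus strand, 14 exons; ENSMUSG00000038859). It held 1.33, 1.08 and 1.30 FPKM in p53-deficient libraries, against 68.3, 69.3 and 69.3 FPKM in WT libraries. The reads behind these values were 94, 42 and 77 in p53-deficient libraries and 3971, 4601 and 4804 in WT libraries, so every p53-deficient library held far fewer reads than any WT library. The mean was 1.23 ± 0.135 FPKM in p53-deficient and 69.0 ± 0.586 FPKM in WT cells (SD, n = 3 each), a share of 1.79%. Per read, Baiap2l1 was 55.6 times lower (48.6 to 64.0, exact binomial, counting error only).

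Ipp, the kelch-repeat gene, had the highest level of the 3 in both groups. It lies at chr4:116507549-116538243 (mm10, plus strand, 9 exons; ENSMUSG00000028696). It held 4.05, 4.92 and 3.68 FPKM in p53-deficient libraries, against 83.8, 83.7 and 83.8 FPKM in WT libraries. All WT libraries agreed to within 1 FPKM, while the p53-deficient libraries spread more in relative terms, with a coefficient of variation of 15.2% against 0.0937% in WT libraries. The mean was 4.22 ± 0.640 FPKM in p53-deficient and 83.8 ± 0.0785 FPKM in WT cells, a share of 5.03%, and the read ratio was 20.6 (18.7 to 22.7). A remainder of this size is not low in absolute terms: 46.3% of tested genes had a lower mean in p53-deficient cells.

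**Figure D1:**
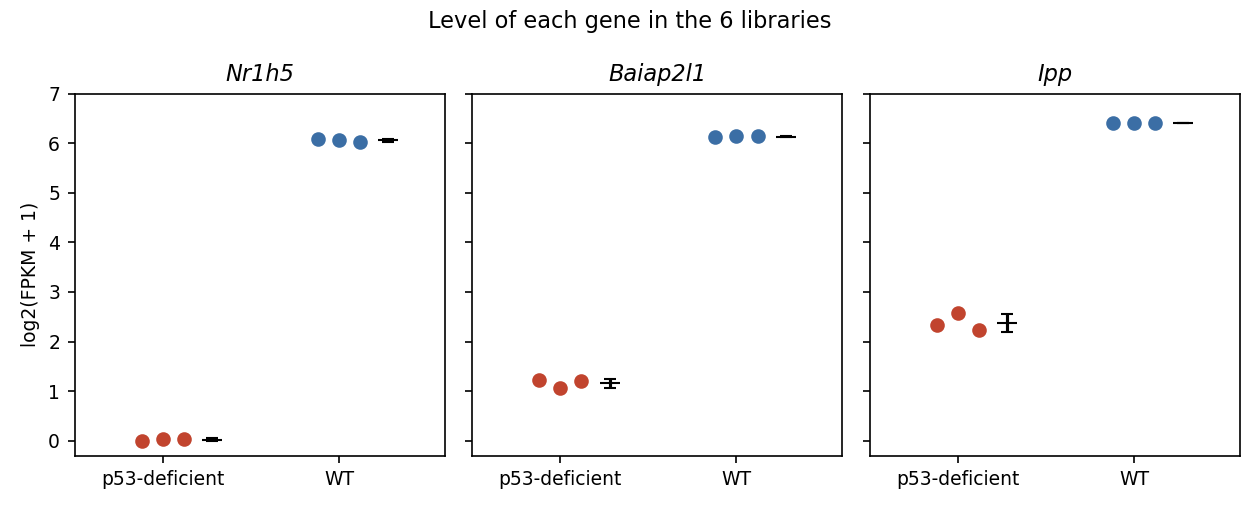
Levels of Nr1h5, Baiap2l1 and Ipp as log2(FPKM + 1) in each of the 3 p53-deficient (red) and 3 WT (blue) libraries, with the mean and SD beside the points (black). The 3 genes sit close together in WT libraries, between 64.4 and 83.8 FPKM, and apart in p53-deficient libraries, between 0 and 4.92 FPKM.

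The 3 genes were thus alike in WT cells and unlike in p53-deficient cells. The ratio of Nr1h5 to Baiap2l1 in mean FPKM was 0.0136 in p53-deficient and 0.948 in WT cells, and that of Baiap2l1 to Ipp was 0.293 in p53-deficient and 0.824 in WT cells. On the log2(FPKM + 1) scale, which understates large falls to low levels, the differences were -6.03 for Nr1h5, -4.97 for Baiap2l1 and -4.03 for Ipp. With a pseudocount of 0.1 in place of 1, Nr1h5 stood at -9.14, Baiap2l1 at -5.70 and Ipp at -4.29. These differences chose the genes and are given as a description, with no test. Among protein-coding genes with a gene name they ranked 1, 2 and 6, with Lefty1 (-4.20), Eda2r (-4.14) and Ptx3 (-4.14) between Baiap2l1 and Ipp. Cxcl5 (-3.90) followed Ipp.

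Expressed as the share of the WT level that was left, the 3 genes stood well below most genes. Of 5172 genes with a WT mean of at least 10 FPKM, the median share in p53-deficient cells was 106%, and 50 genes kept under 10%. Nr1h5 kept 0.0257%, one of 4 genes under 1%. Trp53 itself kept 14.4%. In FPKM means the members were 3886, 55.9 and 19.9 times lower in p53-deficient cells. Tested fibroblast markers were between 1.25 times lower, for the protease inhibitor gene Timp1, and 12.7 times lower, for the transcription factor gene Prrx1. The members were chosen as large falls and the markers were not, and a part of feeder cells in the falls was not tested.

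**Figure D2:**
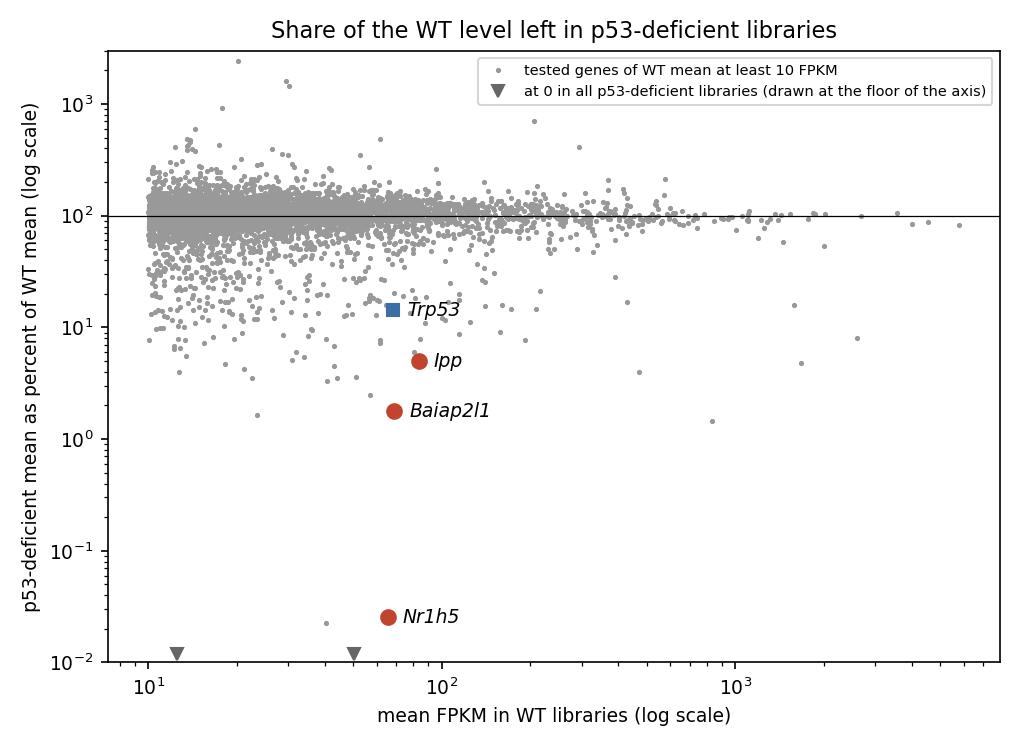
Mean FPKM in p53-deficient libraries as a percent of the WT mean (vertical, log scale) against mean FPKM in WT libraries (horizontal, log scale), for tested genes of WT mean at least 10 FPKM. Red circles mark the members at 0.0257% (Nr1h5), 1.79% (Baiap2l1) and 5.03% (Ipp), the blue square marks Trp53 at 14.4%, and triangles mark 2 genes at 0 in all p53-deficient libraries.

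Whether each fall was confined to the gene was read from its chromosomal neighbours, taken as the 10 nearest tested genes on each side by start position. Neighbours were tested with limma as above, against the same background of 31.3% of tested genes called lower and 35.3% higher. Called and changed at least 2-fold on the log2(FPKM + 1) scale were 9.72% of tested genes, 6.3% lower and 3.42% higher.

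Neighbours of Nr1h5 moved in both directions, and the deepest fall among them was that of a gene inside Nr1h5. Of its 20 neighbours, 9 were called lower, 8 higher and 3 did not pass. On the log2(FPKM + 1) scale 4 were at least 2-fold lower, among them Gm22826, the gene inside Nr1h5. In FPKM means 6 were, against 11.9% of tested genes lower and 6.33% higher at that size. Their median log2 fold change was -0.18, against 0.03 over all tested genes. The neighbour with the deepest fall lies inside Nr1h5: Gm22826, a small nuclear RNA gene of 165 bases on the same strand, is within intron 4 and 57 bases from the nearest exon. Gm22826 had no read in any of the 3 p53-deficient libraries, against 54.7, 47.3 and 48.9 FPKM (156, 154 and 166 reads) in WT libraries. Set against the value of 3 reads over the p53-deficient group, it was at least 139 times lower. Reads of Gm22826 and of unspliced Nr1h5 RNA over the same bases cannot be told apart in these counts. Since Nr1h5 was chosen for its fall, the fall of Gm22826 is given as a description, without a p-value.

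On the side of lower coordinates the first tested gene is Sycp1, which begins 3.56 kb beyond the end of Nr1h5 on the same strand. Sycp1 encodes a protein of the synaptonemal complex, which pairs chromosomes in meiosis. Sycp1 held 5.05, 5.60 and 4.59 FPKM in p53-deficient libraries, against 18.4, 17.1 and 17.9 FPKM in WT libraries. The groups did not overlap, and the log2 fold change was -1.63 (SE 0.0647, limma adjusted p = 2.33e-06). Sycp1 thus kept 28.5% of its WT level, where Nr1h5 kept 0.0257%. On the other side the first tested gene beyond Nr1h5 is Sike1, which encodes a suppressor of antiviral kinases and starts 31.6 kb away on the opposite strand. Sike1 held 4.13 ± 0.187 FPKM in p53-deficient and 6.62 ± 0.356 FPKM in WT cells (log2 fold change -0.57, limma adjusted p = 8.97e-05).

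Further out, the neighbours of Nr1h5 were mixed. Mab21l3, 1091 kb away, held 0.192 ± 0.0898 FPKM in p53-deficient and 1.54 ± 0.238 FPKM in WT cells (log2 fold change -1.09, limma adjusted p = 0.000101). It reached the filter on mean FPKM only through the WT libraries. The processed pseudogene Gm10355, whose reads may be shared with other genes, had a log2 fold change of 1.02. Falls of Sycp1 and Mab21l3, 3.51 and 8.06 times in FPKM means, lay within the range of the fibroblast markers, whose part in them was not tested.

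Neighbours of Baiap2l1 moved in both directions, none as far down as Baiap2l1. Of its 20 neighbours, 5 were called lower, 10 higher and 5 did not pass, or 7 lower and 7 higher under median-ratio scaling. None was called and at least 2-fold lower on the log2(FPKM + 1) scale, where their fold changes ran between -0.82 and 1.41, and 2 were in FPKM means, Gm15708 and Tmem130. Kpna7, an importin alpha gene 625 kb away, had the highest ratio in FPKM means, 10.6 times higher at a low level. It held 1.33, 1.05 and 1.08 FPKM in p53-deficient libraries, against 0.185, 0.0809 and 0.0620 FPKM in WT libraries (log2 fold change 0.96, limma adjusted p = 0.000111). Kpna7 reached the filter on mean FPKM only through the p53-deficient libraries. Bri3, a gene on the opposite strand whose span contains all of Baiap2l1 and which shares 49 exonic bases with it, held 19.9, 19.7 and 19.2 FPKM in p53-deficient libraries, against 17.9, 18.3 and 17.1 FPKM in WT libraries. Its log2 fold change was 0.14 (SE 0.0333, limma adjusted p = 0.00997), a call that ended with adjusted p = 0.313 with median-ratio scaling, 0.166 after quantile normalization and 0.0584 with voom weights on rebuilt reads. The library kit is not stated to mark the strand, so reads over the shared bases cannot be assigned to one strand, but these bases are 1.46% of the exons of Baiap2l1.

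Gm15708, a noncoding gene annotated as intronic on the strand of Bri3 and lying inside Baiap2l1, was lower together with it. It held 0.391, 0.400 and 0.408 FPKM in p53-deficient libraries, against 1.25, 1.69 and 1.497 FPKM in WT libraries (log2 fold change -0.82, SE 0.0846). Gm15708 reached the filter on mean FPKM only through the WT libraries. Since Baiap2l1 was chosen for its fall, the fall of Gm15708 is given as a description, without a p-value. Per read Gm15708 was 3.79 times lower (2.66 to 5.52, exact binomial), on 39 reads in p53-deficient and 167 reads in WT libraries. Gm15708 shares 34 exonic bases with Baiap2l1 and otherwise lies within its span. With no strand stated, its reads cannot be told apart from spliced or unspliced Baiap2l1 RNA over the same bases. With a pseudocount of 0.1 or with voom weights, 2 neighbours of Baiap2l1 became at least 2-fold lower, in place of 0. Outside the gene, the nearest tested gene on the side of lower coordinates was Tecpr1, an autophagy gene 40.9 kb away, with a log2 fold change of 0.24 (limma adjusted p = 0.00610), and on the other side Nptx2, a neuronal pentraxin gene 188 kb away. Nptx2 rose to 13.9 ± 0.901 FPKM in p53-deficient cells, against 4.59 ± 0.260 FPKM in WT cells (log2 fold change 1.41, limma adjusted p = 2.59e-06). A further gene across the start of Baiap2l1, Dmrt1i, was listed at 0 in all 6 libraries.

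The fall of Ipp was not shared by the genes around it. None of its 20 neighbours changed by 2-fold on either scale, and their log2 fold changes ran between -0.48 and 0.62. Called lower were 2, called higher were 8, and 10 did not pass, with 5 called lower under median-ratio scaling. No listed gene overlaps Ipp. Mast2, a kinase gene 43.4 kb away on the side of its start, held 13.9, 13.9 and 13.8 FPKM in p53-deficient libraries, against 11.1, 11.6 and 10.9 FPKM in WT libraries (log2 fold change 0.29, limma adjusted p = 0.000239). Tmem69, a gene of a predicted membrane protein 13.4 kb beyond its end, held 7.31, 7.44 and 7.78 FPKM in p53-deficient libraries, against 6.02, 5.49 and 4.69 FPKM in WT libraries (log2 fold change 0.42, limma adjusted p = 0.00310). Both flanking genes were therefore higher in p53-deficient cells, where Ipp kept 5.03% of its WT level.

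**Figure D3:**
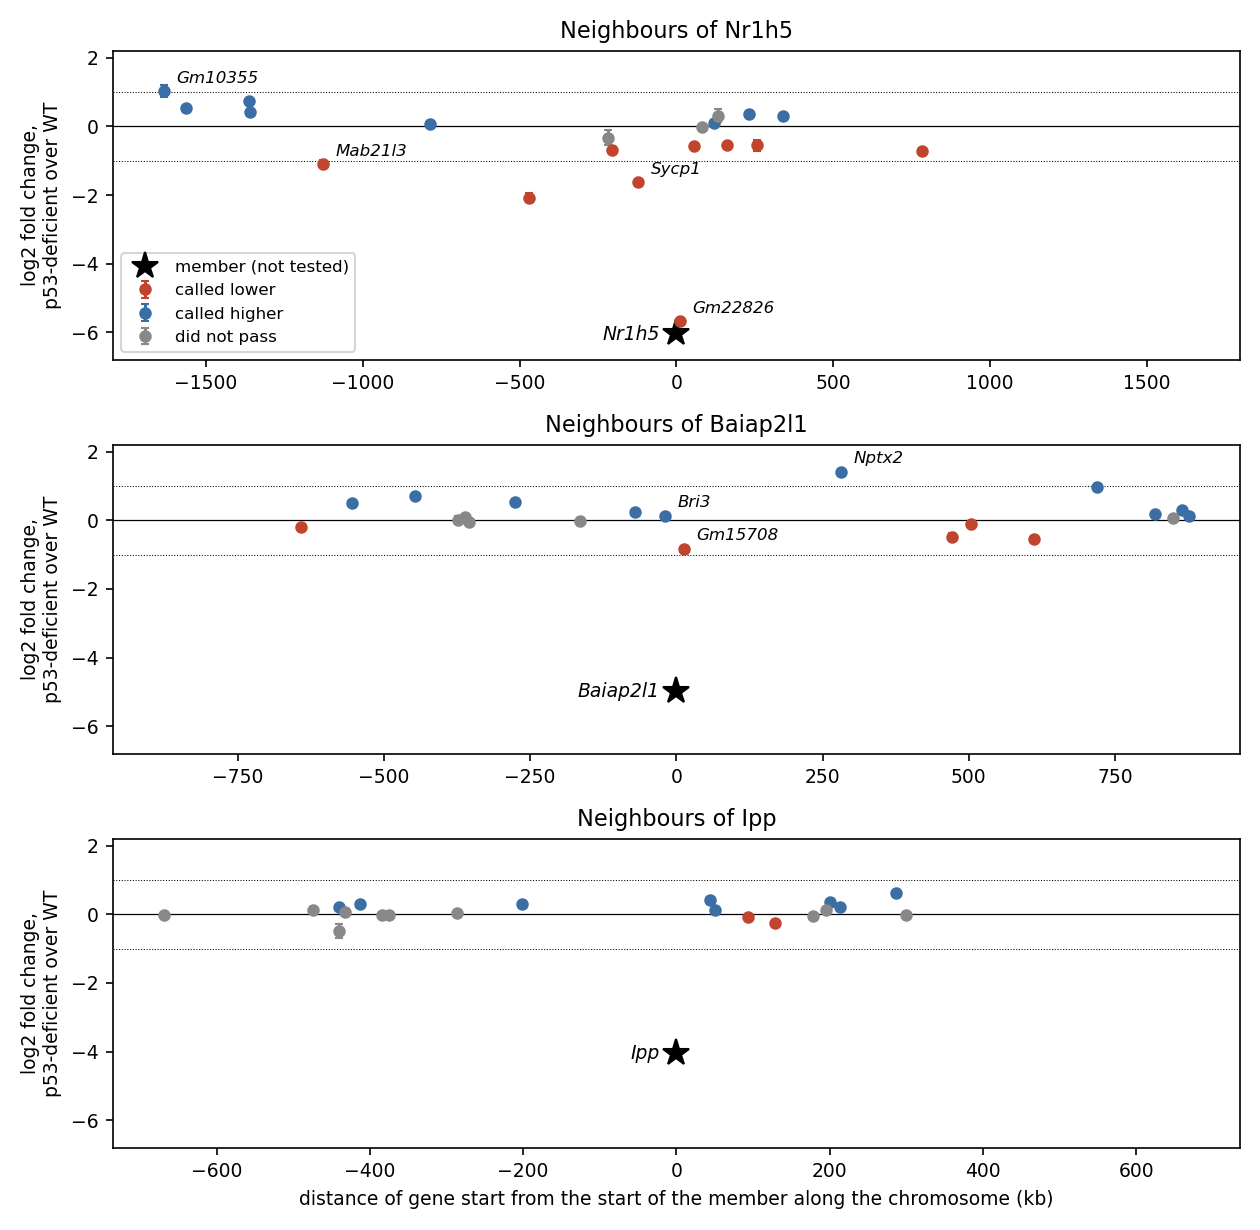
Log2 fold change of p53-deficient over WT cells on the log2(FPKM + 1) scale, with SE, for the 20 tested neighbours of each member, by distance of gene start in kb. Stars mark the members, which were not tested, and dotted lines a 2-fold change. Gm22826, inside Nr1h5, sits beside its star at -5.68, while all neighbours of Baiap2l1 and Ipp lie at -0.82 or above.

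No gene with a near-identical transcript was found for any of the 3 members, nor for Sycp1 or Gm22826, by a search of annotated transcripts (at least 95% identity over at least 50% of the shorter transcript, GENCODE M21). Deposited gene lengths of 2835, 3366 and 2126 bases equalled the exonic bases of all annotated transcripts of Nr1h5, Baiap2l1 and Ipp.

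Tested relatives of Nr1h5 moved in both directions, none by as much as Nr1h5. In a list of 22 other NR1 nuclear receptors and retinoid X receptors, 9 were abundant enough to test, of which 3 were lower, 5 higher and 1 did not pass, and 13 were too low. Their median log2 fold change was 0.32, against 0.03 over all tested genes. Calls over all tested genes were 31.3% lower and 35.3% higher. Ppard, a receptor gene of the fatty acid sensing PPAR group, had the deepest fall of the 9 tested genes. It held 3.41 ± 0.392 FPKM in p53-deficient and 6.83 ± 0.227 FPKM in WT cells (log2 fold change -0.83, limma adjusted p = 6.80e-05). Among the 13 too low to test, some fell by a larger ratio in FPKM means. Nr1h2, the liver X receptor beta gene and the most abundant of the list by its mean over all 6 libraries, fell slightly to 22.9 ± 0.972 FPKM in p53-deficient cells, against 25.2 ± 0.293 FPKM in WT cells (log2 fold change -0.13, limma adjusted p = 0.0135). Nr1h4, which encodes the farnesoid X receptor itself, had no read in any library, where 3 reads would be 0.0259 FPKM in the p53-deficient and 0.0229 FPKM in the WT group. Rxra and Rxrb, retinoid X receptors that partner this group, had log2 fold changes of -0.26 and 0.32, both called. Rara, the retinoic acid receptor alpha gene, changed most and rose to 12.4 ± 0.803 FPKM, against 4.68 ± 0.0397 FPKM in WT cells (log2 fold change 1.23). Of 6 known target genes of the farnesoid X receptor, 5 were too low to test. The exception, the bile acid transporter gene Slc51a, held 2.30 ± 0.138 FPKM in p53-deficient and 2.56 ± 0.184 FPKM in WT cells and did not pass, with a log2 fold change of -0.11.

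Family members and partners of Baiap2l1 moved in both directions. Of 20 listed genes 19 were matched and 15 tested, of which 6 were lower, 5 higher and 4 did not pass. Over all tested genes 31.3% were called lower and 35.3% higher. None of these 15 genes changed by 2-fold on the log2(FPKM + 1) scale. Its close relative Baiap2, which encodes the I-BAR protein IRSp53, rose to 9.38 ± 0.134 FPKM, against 7.11 ± 0.213 FPKM in WT cells (log2 fold change 0.36). Mtss1, another I-BAR gene, rose with 0.37, and Baiap2l2 was too low to test. Cdc42, the GTPase gene and most abundant of the list, held 122 ± 0.559 FPKM in p53-deficient and 143 ± 1.49 FPKM in WT cells (log2 fold change -0.22). Insr, the insulin receptor gene whose kinase gives IRTKS its name, fell to 1.21 ± 0.0897 FPKM, against 2.55 ± 0.145 FPKM in WT cells, 2.11 times lower in FPKM means (log2 fold change -0.68).

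Among the kelch and BTB relatives of Ipp, 48 of 49 were matched and 32 tested, of which 10 were lower, 10 higher and 12 did not pass. Over all tested genes 31.3% were called lower and 35.3% higher. At least 2-fold on the log2(FPKM + 1) scale, 2 were lower and 1 higher, against 6.3% and 3.42% of tested genes. In FPKM means 5 were lower and 2 higher at that size, against 11.9% and 6.33%. Ivns1abp, a kelch protein gene named for its binding to an influenza protein, rose to 31.6 ± 0.953 FPKM, against 9.80 ± 0.0693 FPKM in WT cells (log2 fold change 1.59). Klhl13, which in human cells encodes a substrate adaptor of the cullin 3 ubiquitin ligase, fell to 48.6 ± 0.361 FPKM, against 132 ± 0.871 FPKM in WT cells (log2 fold change -1.42). Klhl26 fell to 1.83 ± 0.124 FPKM, against 6.54 ± 0.351 FPKM in WT cells (-1.41). Keap1, the adaptor that holds the oxidative stress factor NRF2 in check, held 9.57 ± 0.117 FPKM in p53-deficient and 9.36 ± 0.446 FPKM in WT cells without passing. Of 5 genes of the cullin 3 ligase core, 4 were higher and 1 lower, against 35.3% and 31.3% of all tested genes. Under either scaling alternative and without WT replicate 3, 2 of them were higher, and the list as a set was not tested. Cul3 itself rose to 37.0 ± 0.440 FPKM, against 26.0 ± 0.599 FPKM in WT cells, and Nedd8, which encodes the modifier that activates cullins and was the most abundant, held 129 ± 12.7 FPKM in p53-deficient and 110 ± 2.51 FPKM in WT cells.

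**Figure D4:**
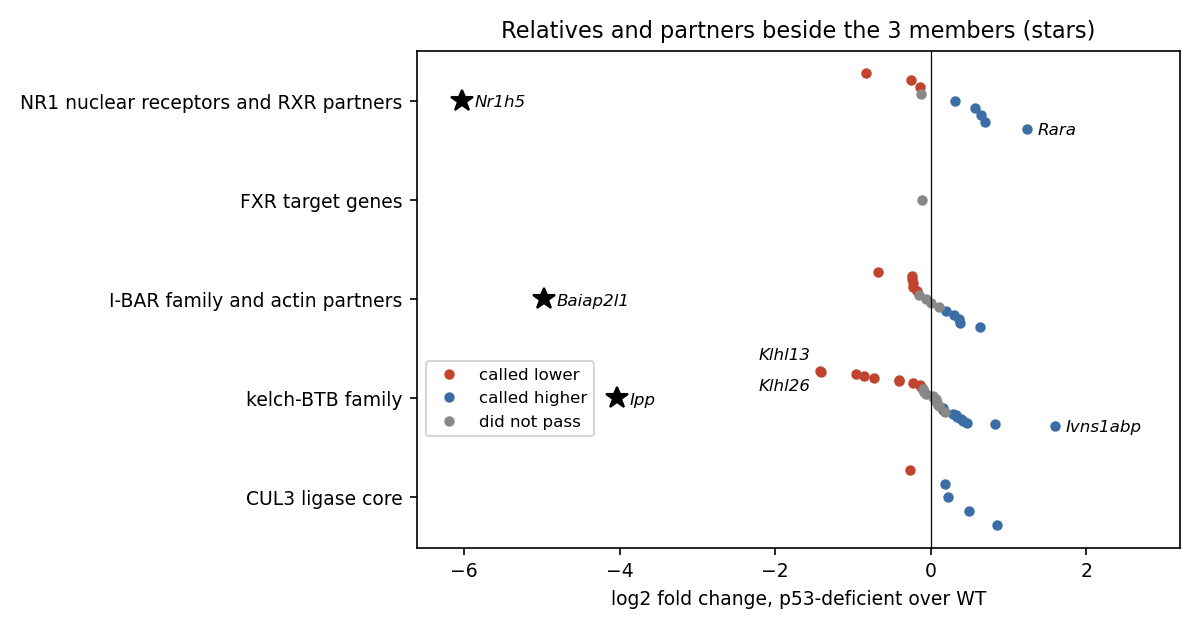
Log2 fold change of p53-deficient over WT cells on the log2(FPKM + 1) scale for tested genes of 5 lists of relatives and partners, coloured by call, with the members as stars. The genes of these lists lie between -1.42 and 1.59, far from Nr1h5 at -6.03, Baiap2l1 at -4.97 and Ipp at -4.03.

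Genes whose levels moved most like the members were found by the root mean square distance of log2(FPKM + 1) over the 6 libraries after each gene's mean was subtracted. This measure follows the contrast that chose the members and is a description. For Nr1h5 they were the pseudogene Gm13394 (distance 0.0624), Gm22826 (0.184) and the pseudogene Gm10499 (0.339). For Baiap2l1 they were Gm10499 (0.198), Gm11361 (0.268) and the pseudogene Gm15772 (0.312). For Ipp they were the pseudogene Gm8615 (0.0703), Eda2r (0.0926), which encodes the ectodysplasin A2 receptor, and the chemokine gene Cxcl5 (0.129). Gm22826 was the single one of these that lies near its member. Reads of Gm13394, Gm11361, Gm15772, Gm10499 and Gm8615 are uncertain where they match, since 79, 6, 6, 2 and 1 other genes had near-identical transcripts. For Gm10499 these matches spanned 139 and 129 bases.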

How the data were processed

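RNA of 3 p53-deficient and 3 WT libraries was analysed from a table of 54532 genes in FPKM as deposited by the authors. Per the labels' protocols, mRNA was purified with poly-T beads and built into libraries with a kit not stated to mark the strand. HISAT2 2.0.5, featureCounts 1.5.0-p3 and the mm10 build are named in the submitters' processing notes, without their roles. The deposited gene length in bases gave reads back: FPKM times length was a whole multiple of a step in 100% of values above 0 (tolerance 0.001 reads). Coordinates equalled those of GENCODE M21 for 98.3% of the genes found there.

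Genes whose mean over the 6 libraries reached 0.5 FPKM (15144) were tested on the log2(FPKM + 1) scale by limma 3.58.1 (R 4.3.3, variance trend, two-sided, Benjamini-Hochberg). Counts at an unadjusted p under 0.05 were 10543. An exact permutation test of 3 libraries against 3 cannot go below 0.1. Intervals of read ratios are exact binomial at 95% and cover counting error. Near-identical transcripts were sought with BLAST+ 2.17.0 and figures drawn with matplotlib 3.10.9.

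The members and lists were chosen with earlier results of these data known, and motifs after the sequences were read. Some genes are not reported here. Named were members, flanking and overlapping genes, neighbours or list genes changed at least 2-fold, the most abundant gene of each list and the most alike genes. Other named genes (Kpna7, Tmem130, Ppard, Rxra, Rxrb, Nr1h4, Baiap2, Mtss1, Insr, Keap1, Cul3, and those set beside them) were chosen after their values were seen. Dppa5a was named in the same way. Alternatives tried were the filter (none, or mean FPKM 5), a pseudocount of 0.1, 2 scalings (by median log2 ratio, called median-ratio scaling, and quantile normalization), a replicate block, voom weights, each library left out, and other sets of neighbours.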

Additional observations from a re-analysis of the deposited data

How the results depend on the processing

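Nr1h5, Baiap2l1 and Ipp were chosen for their falls in these libraries, so their values under other processing are a description. Their log2 fold changes were -9.14, -5.70 and -4.29 at the smaller pseudocount of 0.1, -11.65, -5.79 and -4.37 when rebuilt reads were fitted with voom, and -6.13, -5.07 and -4.13 under median-ratio scaling. Leaving out a library moved them within -6.04 to -6.02, -5.001 to -4.92 and -4.12 to -3.95. Genes called lower at least 2-fold numbered 1692 with a pseudocount of 0.1, 1825 with voom weights and 414 at a mean FPKM of at least 5, where 2268 were lower in all. Median-ratio scaling moved the median of all genes by -0.10.

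Counts of neighbours depended on the choice of neighbours and on scaling. For Nr1h5, neighbours called lower at least 2-fold were 2 without a filter and 2 at a mean FPKM of at least 5, because other genes then counted as neighbours. Those called higher were 3 without a filter and 3 within 500 kb, and with 5 genes on each side 5 were lower and 2 higher. For Baiap2l1, 2 were at least 2-fold lower with voom weights and 2 with a pseudocount of 0.1, 5 were higher without a filter, 2 were lower at a mean FPKM of at least 5, 4 were higher with 5 on each side, and within 500 kb 2 were lower and 5 higher. For Ipp, 5 were lower under median-ratio scaling and 4 with voom weights, and 4 were higher with 5 on each side. None of the neighbours of Ipp was called lower at least 2-fold under any alternative run.

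Without a filter 8 nuclear receptors were lower. At a mean FPKM of at least 5, 4 kelch genes were lower, 5 were higher, and 0 genes of the cullin 3 core were lower. In that core 2 genes were higher under either scaling, and 2 to 4 with a library left out. Slc51a was called lower under median-ratio scaling, the 1 such call among farnesoid X receptor targets.

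Same-numbered libraries did not deviate together, with correlations of -0.0328, 0.0142 and 0.00556, so the replicate numbers were taken as names. With the replicate number as a block 4579 genes were lower and 5187 higher. Depth limits the level of Nr1h5 in p53-deficient cells, which rests on 2 reads.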

Other observations

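Of 5172 genes with a WT mean of at least 10 FPKM, 19 kept no more of their WT level in p53-deficient cells than Ipp did. Of these, 10 were protein-coding, and 10 of the 19 had a near-identical transcript of another gene, among them 7 of the 9 that are not protein-coding. The 4 genes that kept under 1% fell into 2 places of the genome. Nr1h5 and the small nuclear RNA gene Gm22826 share one on chromosome 3. The other, on chromosome 17, holds Gm8909, with 0 in all p53-deficient libraries and 12.5 ± 1.32 FPKM in WT libraries (SD, n = 3), and Gm10499, with 0.00899 ± 0.0156 FPKM in p53-deficient and 40.3 ± 0.929 FPKM in WT libraries. Gm8909 and Gm10499 lie 18.5 kb apart on the same strand. Gm10499 had 2 near-identical genes, over 139 and 129 aligned bases, and its reads in those stretches are uncertain. These genes were singled out after their values were seen.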
